A study of Mus musculus with 6 samples.

Results

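The chemokine ligands described here are 10 genes of cultured heart cells, namely Cxcl1, Cxcl5, Cxcl9, Cxcl10, Cxcl12, Cxcl16, Ccl2, Ccl5, Ccl7 and Cx3cl1. They were taken by gene symbol from a table of raw counts that holds 56691 genes, and each symbol had 1 row. Of the 10, 9 passed the filter on low counts and were tested among 15429 genes, and Cxcl9 had too few counts for a test. The cells were primary cardiomyocytes of neonatal mice, sequenced in bulk as 6 RNA libraries. In 3 libraries the cells had received the adenovirus Ad5 carrying HMGB2 behind the cTNT promoter, which is the promoter of cardiac troponin T and is active in cardiomyocytes. In the other 3 they had received the Ad5-cTNT vector, so both groups met the virus and neither was left without it. Strain, dose of virus and hours between infection and harvest were not given in the sources used here, and neither was whether replicates came from separate cultures or animals. The p-values therefore weigh differences against a spread among libraries that could be of technical origin alone.

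Chemokines are small secreted proteins that draw leukocytes along a gradient by binding receptors with a serpentine fold on the cell surface. Some, such as Cxcl9 and Cxcl10, are known for their induction by interferons through STAT and IRF transcription factors, while others, such as Cxcl1 and Ccl2, are known as early targets of NF-kappaB after cytokine or injury signals. Cxcl12 is made without such a stimulus in many tissues, and Cxcl16 and Cx3cl1 are made as membrane-anchored proteins that proteases can release. The ligands were sorted by these best known inducers into an interferon type (Cxcl9, Cxcl10 and Ccl5), an NF-kappaB type (Cxcl1, Cxcl5, Ccl2 and Ccl7), a constitutive type (Cxcl12) and a membrane-bound type (Cxcl16 and Cx3cl1). The sorting is approximate, since NF-kappaB also acts on the Cxcl10 and Ccl5 promoters.

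The letters that interferon-type and NF-kappaB-type factors are known to bind were looked for upstream of the ligand genes with a promoter entry. The stretches upstream of 3 CXC ligand genes that lie on the same chromosome are printed side by side. Each is the 250 bases before the start that RefSeq gives the gene on GRCm38.p6, read 5′ to 3′ on the gene's own strand. The starts in GENCODE M21, used for gene positions below, differ for some genes, so that the Cxcl1 window runs a few bases past its GENCODE start and most of the Cx3cl1 window lies past its GENCODE start. Capitals mark matches to an interferon-stimulated response element (ISRE, GAAANNGAAA) or to a kappaB element (GGGANNNTCC), and a STAT element (GAS, TTCNNNGAA) was searched too, each on both strands. The Cxcl10 window is chr5:92348890-92349139 on the minus strand, the Cxcl9 window is chr5:92328080-92328329 on the minus strand, and the Cxcl1 window is chr5:90890995-90891244 on the plus strand.
Cxcl10: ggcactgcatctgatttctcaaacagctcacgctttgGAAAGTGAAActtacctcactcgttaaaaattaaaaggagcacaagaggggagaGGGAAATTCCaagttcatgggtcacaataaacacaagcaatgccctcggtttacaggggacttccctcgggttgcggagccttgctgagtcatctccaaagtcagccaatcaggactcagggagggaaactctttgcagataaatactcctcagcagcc
Cxcl9: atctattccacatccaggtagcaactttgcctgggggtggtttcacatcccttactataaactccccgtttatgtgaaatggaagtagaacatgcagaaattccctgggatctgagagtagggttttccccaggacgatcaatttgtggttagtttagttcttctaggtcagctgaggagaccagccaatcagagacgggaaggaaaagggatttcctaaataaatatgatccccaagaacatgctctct
Cxcl1: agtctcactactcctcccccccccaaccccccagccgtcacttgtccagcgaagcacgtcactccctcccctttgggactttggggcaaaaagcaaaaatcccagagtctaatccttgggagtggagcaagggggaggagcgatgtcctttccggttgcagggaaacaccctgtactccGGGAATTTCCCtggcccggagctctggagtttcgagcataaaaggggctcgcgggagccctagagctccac
The Cxcl10 window held 1 ISRE match, GAAAGTGAAA at -213 to -204 from the start, and 1 kappaB match, GGGAAATTCC at -159 to -150, with no overlap between them. In the Cxcl1 window the kappaB letters matched on both strands at -71 to -62 and -70 to -61, which overlap and appear as 1 run of capitals. The Cxcl9, Cxcl12 and Cx3cl1 windows held none of the 3 sets of letters, which says only that those letters are not in these windows. Of 32851 windows of the same length, 2.98% held an ISRE match, 3.86% a kappaB match and 7.02% a GAS match. A match is a description of letters and not of binding. Promoter entries were found for 5 of the 10 ligands, and Cxcl5, Cxcl16, Ccl2, Ccl5 and Ccl7 are named only.

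Library totals ranged between 14497676 and 16618365 counts with HMGB2 and between 12498215 and 14101385 counts with the vector. Hmgb2, the gene the virus carried, had 175, 196 and 182 CPM (counts scaled to a common library size, with TMM factors) in HMGB2 libraries 1, 2 and 3, against 46.8, 44.8 and 36.3 CPM in vector libraries 1, 2 and 3. The groups were apart in the direction of the labels. HMGB2 library 3 and vector library 1 stood apart from the others by gene length. Each library's deviation was taken from the mean of the other 2 libraries of its group. Its Spearman's rho with exon length was -0.41 for HMGB2 library 3 and -0.45 for vector library 1, over 15288 genes. The other 4 libraries had 0.26 to 0.34. The genes are not independent replicates, and 1 deviating library moves the other 2 of its group the opposite way. Results of the tested ligands are given below also without HMGB2 library 3 and vector library 1. Among all genes tested 14.4% were higher with HMGB2 and 10.8% lower, so 25.2% passed the threshold of an adjusted p under 0.05 in edgeR's quasi-likelihood test with Benjamini-Hochberg adjustment. Cardiomyocyte markers (8 genes, Tnnt2 among them) were present in every library, and the markers of fibroblasts and endothelium showed that other heart cells were present too.

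With HMGB2, the interferon-type ligands Cxcl10 and Ccl5 rose 4.83-fold and 5.09-fold over the vector. The NF-kappaB-type ligands Ccl2, Ccl7 and Cxcl1 held most of the summed CPM of the 10 ligands and did not pass the test. Cxcl5 of the same type rose 1.78-fold. Cxcl12 fell, at 1.42-fold lower, and Cxcl16 and Cx3cl1 did not pass. In all, 3 of the 9 tested ligands rose and 1 fell, beside 14.4% and 10.8% of all genes tested. The median log2 fold change was 0.05 over the 9 tested ligands and -0.0022 over all genes tested. Libraries of the groups did not overlap for 4 of the 9 ligands, beside 40.5% of all genes tested, so separation of the groups alone is common in these data. The cultures were measured in bulk, where fewer cells of a type and less RNA per cell cannot be told apart.

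**Figure D1:**
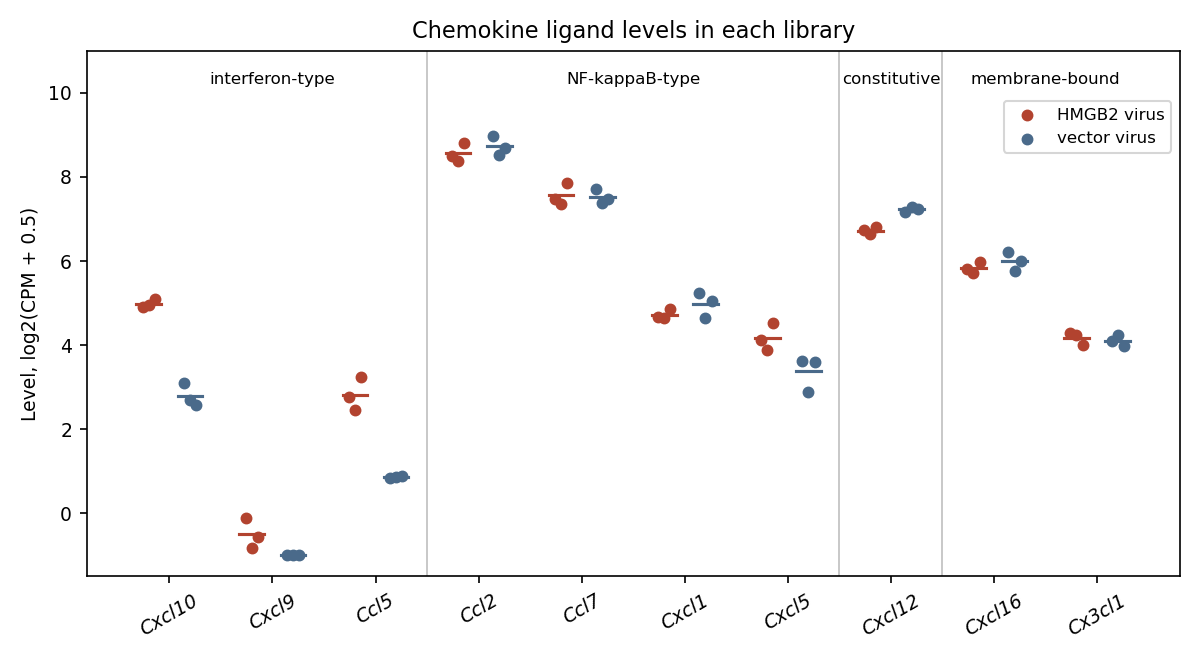
Level of each chemokine ligand in each of the 6 libraries, as log2(CPM + 0.5), with HMGB2 libraries 1 to 3 in red on the left and vector libraries 1 to 3 in blue on the right of each gene and a line at each group's mean. The red and blue points are apart for Cxcl10, Ccl5, Cxcl5 and Cxcl12 and overlap for Ccl2, Ccl7, Cxcl1, Cxcl16 and Cx3cl1, and Cxcl9 lies at the floor with the vector.

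Cxcl10 is a ligand of CXCR3, the receptor of activated T cells and NK cells, and was first known as an interferon-gamma-induced protein. The gene (ENSMUSG00000034855) is protein-coding and lies at chr5:92346638-92348889 on the minus strand (GENCODE M21, GRCm38). It had 493, 441 and 554 counts in HMGB2 libraries 1, 2 and 3, against 100, 82 and 76 counts in vector libraries 1, 2 and 3. Scaled for depth these were 29.6, 30.4 and 33.6 CPM with HMGB2, against 8.02, 5.99 and 5.44 CPM with the vector. Each HMGB2 library stood above each vector library, with no overlap. The mean was 31.2 ± 2.09 CPM with HMGB2 and 6.48 ± 1.36 CPM with the vector (n = 3 each, SD). The log2 fold change was 2.27 (SE 0.14, 95% interval 1.96 to 2.59; edgeR adjusted p = 6.51e-06). Without HMGB2 library 3 and vector library 1 it was 2.39. Over 133 bases, 5.9% of the exon length, the exons of Cxcl10 overlap those of Art3 on the opposite strand. Art3, a gene of the ADP-ribosyltransferase family, also rose, with 267 CPM in HMGB2 libraries and 123 CPM in vector libraries (log2 fold change 1.12, edgeR adjusted p = 2.09e-05). The strand setting of the counting is not stated, so reads of the 2 genes in the shared bases cannot be told apart.

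Ccl5, also called RANTES, draws T cells, monocytes and eosinophils. The gene (ENSMUSG00000035042, chr11:83525778-83530518, minus strand) had 104, 73 and 147 counts in HMGB2 libraries 1, 2 and 3, against 16, 18 and 19 counts in vector libraries 1, 2 and 3. In CPM these were 6.25, 5.03 and 8.91 with HMGB2, against 1.28, 1.32 and 1.36 with the vector. All 3 HMGB2 libraries were above all 3 vector libraries, and library 3 was the highest of its group while the vector libraries lay close together. Means were 6.73 ± 1.98 CPM with HMGB2 and 1.32 ± 0.0384 CPM with the vector (n = 3 each, SD). The log2 fold change was 2.35 (SE 0.26, 95% interval 1.75 to 2.94; edgeR adjusted p = 0.000224), and 2.08 without HMGB2 library 3 and vector library 1. The intervals of Cxcl10 and Ccl5 overlap over most of their length, and the difference between them was not tested.

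Cxcl9, another CXCR3 ligand, known as monokine induced by interferon-gamma, had too few counts for the test. The gene (ENSMUSG00000029417) lies at chr5:92321347-92328079, next to Cxcl10 on the same strand. It had 7, 1 and 3 counts in HMGB2 libraries 1, 2 and 3, against 0 counts in each vector library. The summed count was 11 with HMGB2 (95% Poisson interval 5.49 to 19.7) and 0 with the vector. Set against a floor of 3 counts over the vector group, which is 0.0741 CPM, the 11 counts with HMGB2 were 3.13-fold higher after scaling to library totals. This ratio takes the 11 counts as exact, so it is not a lower limit on the change. The ratio was 1.76-fold without HMGB2 library 1, which held 7 of the 11 counts, 2.06-fold without vector library 2 and 2.04-fold without vector library 3. Fitted with no filter on low counts it had an edgeR adjusted p of 0.0538, and DESeq2 gave an unadjusted p of 0.0387 with no adjusted value. The Poisson interval and the floor cover counting error only, each for its own group. Transcripts of Cxcl11, the remaining CXCR3 ligand, summed to 27 counts over the HMGB2 libraries and 6 over the vector libraries, and it was not tested either. Cxcl11 was no member of the 10 and is given because it binds the same receptor.

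Ccl2 and Ccl7 attract monocytes through CCR2, and their genes are neighbours on chromosome 11. Ccl2 (ENSMUSG00000035385, chr11:82035571-82037453, plus strand) had 360, 331 and 447 CPM in HMGB2 libraries 1, 2 and 3, against 503, 365 and 414 CPM in vector libraries 1, 2 and 3. The groups overlapped, and the highest value of all was that of vector library 1. The mean was 379 ± 60.2 CPM with HMGB2 and 427 ± 70.1 CPM with the vector (n = 3 each, SD), with a log2 fold change of -0.17 (SE 0.14, 95% interval -0.48 to 0.14; edgeR adjusted p = 0.406). Without HMGB2 library 3 and vector library 1 the log2 fold change was again -0.17, but its edgeR adjusted p was 0.0228, so Ccl2 then passed as lower with HMGB2. Ccl7 (ENSMUSG00000035373, chr11:82045712-82047525, plus strand) had 178, 164 and 233 CPM in HMGB2 libraries 1, 2 and 3, against 210, 167 and 179 CPM in vector libraries 1, 2 and 3. These values overlapped as well, with the highest in HMGB2 library 3. For Ccl7 the log2 fold change was 0.05 (SE 0.14, 95% interval -0.26 to 0.35; edgeR adjusted p = 0.836), and its sign turned to -0.01 without HMGB2 library 3 and vector library 1. Changes the size of those of Cxcl10 and Ccl5 lie outside both intervals. Only changes within -0.48 to 0.14 for Ccl2 and -0.26 to 0.35 for Ccl7 lie inside them.

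Cxcl1 and Cxcl5 attract neutrophils through CXCR2. Cxcl1 (ENSMUSG00000029380, chr5:90891241-90893115, plus strand) had 24.8, 24.6 and 28.7 CPM in HMGB2 libraries 1, 2 and 3, against 37.1, 24.3 and 32.6 CPM in vector libraries 1, 2 and 3. Vector library 2 lay just below the HMGB2 libraries and the other 2 vector libraries lay above them. The mean was 26.0 ± 2.32 CPM with HMGB2 and 31.3 ± 6.49 CPM with the vector (n = 3 each, SD), and the log2 fold change of -0.27 (SE 0.15, 95% interval -0.60 to 0.06) had an edgeR adjusted p of 0.225. Leaving out vector library 2 gave -0.42 with an edgeR adjusted p of 0.0459, which passes, and without HMGB2 library 3 and vector library 1 the log2 fold change was -0.21. Cxcl5 (ENSMUSG00000029371, chr5:90759360-90761624, plus strand) went the other way, with 17.0, 14.1 and 22.7 CPM in HMGB2 libraries 1, 2 and 3, against 11.8, 6.94 and 11.7 CPM in vector libraries 1, 2 and 3. The groups did not overlap, although HMGB2 library 2 and vector library 1 lay close to each other. Cxcl5 rose to 17.9 ± 4.35 CPM with HMGB2, against 10.1 ± 2.76 CPM with the vector (n = 3 each, SD; log2 fold change 0.83, SE 0.22, 95% interval 0.32 to 1.33, edgeR adjusted p = 0.0246). This call rested on single libraries. The edgeR adjusted p was 0.0574 without HMGB2 library 1, 0.0616 without HMGB2 library 3 and 0.0789 without vector library 2, while without both HMGB2 library 3 and vector library 1 it was 0.00228.

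Cxcl12, also called SDF-1, holds and guides progenitor cells and lymphocytes through CXCR4. The gene (ENSMUSG00000061353, chr6:117168535-117181367, plus strand) had 1756, 1432 and 1835 counts in HMGB2 libraries 1, 2 and 3, against 1786, 2139 and 2099 counts in vector libraries 1, 2 and 3. These were 106, 98.8 and 111 CPM with HMGB2, against 143, 156 and 150 CPM with the vector. Raw counts overlapped, and after scaling to library size each HMGB2 library was below each vector library. Cxcl12 fell to 105 ± 6.24 CPM with HMGB2, against 150 ± 6.51 CPM with the vector (n = 3 each, SD; log2 fold change -0.51, SE 0.07, 95% interval -0.68 to -0.34, edgeR adjusted p = 0.00103). Without HMGB2 library 3 and vector library 1 the log2 fold change was -0.58. Summed markers of fibroblasts and endothelium were lower with HMGB2, while those of smooth muscle and pericytes overlapped between the groups (1290 to 1380 CPM with HMGB2 and 1300 to 1380 CPM with the vector). The 8 fibroblast markers summed to 4400 to 4500 CPM with HMGB2 and 4950 to 5030 CPM with the vector, with 2 of the 8 lower in the test, Dcn and Lum, beside 10.8% of all genes tested. The 8 endothelial markers summed to 2620 to 2680 CPM with HMGB2 and 3000 to 3050 CPM with the vector, with 2 of the 8 lower, Pecam1 and Emcn, beside the same 10.8%. No marker of either list was at 0 in every library, and their part in the result for Cxcl12 was not tested.

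Cxcl16 and Cx3cl1 carry their chemokine domain on a mucin-like stalk above the membrane, which ADAM10 and ADAM17 can cut. Cxcl16, the CXCR6 ligand (ENSMUSG00000018920, chr11:70453983-70459984, minus strand), had 56.0, 52.1 and 62.9 CPM in HMGB2 libraries 1, 2 and 3, against 73.7, 54.2 and 63.4 CPM in vector libraries 1, 2 and 3. The groups overlapped and the log2 fold change was -0.16 (SE 0.12, 95% interval -0.42 to 0.11; edgeR adjusted p = 0.369), and -0.12 without HMGB2 library 3 and vector library 1. Its exons share 552 bases, 18.3% of their length, with Zmynd15 on the opposite strand (log2 fold change -0.08), so the Cxcl16 count is uncertain by the reads in that overlap. Cx3cl1, or fractalkine (ENSMUSG00000031778, chr8:94772009-94782427, plus strand), had 19.0, 18.4 and 15.5 CPM in HMGB2 libraries 1, 2 and 3, against 16.5, 18.4 and 15.2 CPM in vector libraries 1, 2 and 3. Here too the groups overlapped, with a log2 fold change of 0.08 (SE 0.12, 95% interval -0.19 to 0.34; edgeR adjusted p = 0.695), and 0.16 without HMGB2 library 3 and vector library 1. Of 9 genes listed as proteases that shed or trim chemokines, 6 were tested and none passed in edgeR, where 2 had an unadjusted p under 0.05 (Mmp8 and Mmp14, both lower), and DESeq2 and limma-voom called 0. The 2 with the most CPM, which is not a comparison per length, were Adam10 and Mmp14, with log2 fold changes of -0.06 (edgeR adjusted p = 0.619) and -0.18 (edgeR adjusted p = 0.0977). Mmp14 passed as lower without HMGB2 library 3 and vector library 1 (edgeR adjusted p = 0.00243). Over the protease list, 2 genes passed as lower without these 2 libraries, 1 without HMGB2 library 2 and 1 with an offset for gene length.

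**Figure D2:**
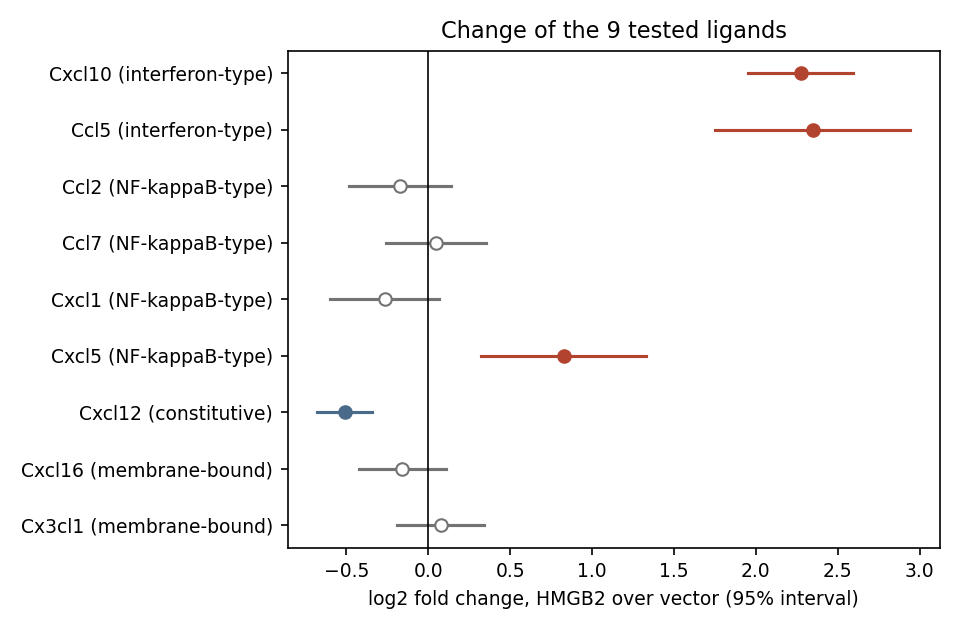
Log2 fold change of each of the 9 tested chemokine ligands, HMGB2 over vector, with its 95% interval from edgeR (red, higher at an adjusted p under 0.05; blue, lower; open grey, did not pass). Cxcl10 and Ccl5 lie beyond 1.75 at the low end of their intervals, and the intervals of Ccl2, Ccl7, Cxcl1, Cxcl16 and Cx3cl1 include 0.

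Summing the types within a library set them side by side. The interferon-type ligands summed to 36.3, 35.5 and 42.7 CPM in HMGB2 libraries 1, 2 and 3, against 9.30, 7.30 and 6.80 CPM in vector libraries 1, 2 and 3. Every HMGB2 sum was above every vector sum, with means of 38.2 ± 3.92 CPM with HMGB2 and 7.80 ± 1.32 CPM with the vector (n = 3 each, SD). For the NF-kappaB type the sums were 579, 534 and 731 CPM in HMGB2 libraries 1, 2 and 3, against 762, 563 and 637 CPM in vector libraries 1, 2 and 3. These overlapped, and their means of 615 ± 103 CPM with HMGB2 and 654 ± 101 CPM with the vector differed by less than 1 SD. The log2 ratio of the interferon-type to the NF-kappaB-type sum was -4.00 ± 0.0941 with HMGB2 and -6.39 ± 0.144 with the vector (n = 3 each, SD), a difference of 2.39. The pooled SD of this ratio was 0.122 although the NF-kappaB-type sum varied widely between libraries. No test is given for the ratio of sums, because the ligands and their sorting were chosen with results of these data known. Without Ccl2 and Ccl7, the most abundant of the NF-kappaB type, the difference was 2.2. The interferon-type sum was mostly Cxcl10, at a mean of 31.2 CPM with HMGB2 and 6.48 CPM with the vector. The NF-kappaB-type sum was mostly Ccl2 and Ccl7, so the ratio of sums weighs the other ligands little.

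Library by library, the ratio of Cxcl10 to Ccl2 largely repeats this contrast. These 2 ligands had the most CPM of their types, so the ratio is not a separate result. It was -3.60, -3.44 and -3.73 on the log2 scale in HMGB2 libraries 1, 2 and 3, against -5.97, -5.93 and -6.25 in vector libraries 1, 2 and 3. The 3 HMGB2 values were all above the 3 vector values, by 2.46 on average. No test is given for this pair either, since it was taken from the same ligands. Within the 10 ligands, the interferon type made up 4.60% ± 0.193 of the summed CPM with HMGB2 and 0.873% ± 0.0813 with the vector (n = 3 each, SD). Ccl2 and Ccl7 together made up 68.4% ± 1.95 with HMGB2 and 68.5% ± 2.26 with the vector (n = 3 each, SD). These 2 monocyte-attracting ligands thus held most of the summed CPM of the 10 in both groups. CPM is not scaled for gene length, so these are not shares of transcripts.

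**Figure D3:**
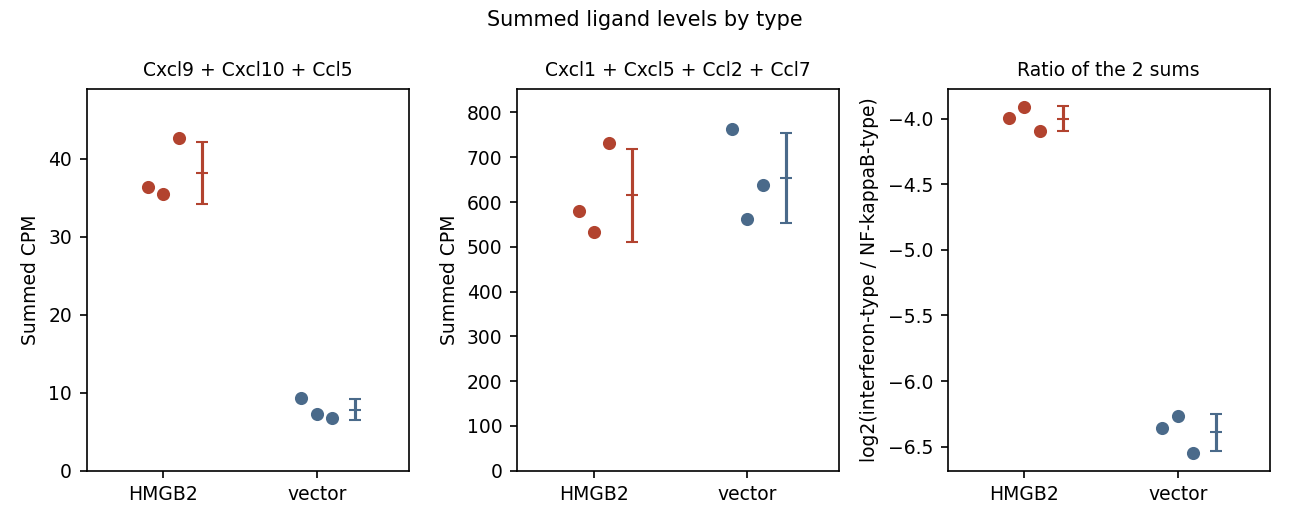
Summed CPM of the interferon-type ligands (left) and of the NF-kappaB-type ligands (middle), and the log2 ratio of the sums (right), for HMGB2 libraries in red and vector libraries in blue, with the mean and SD of 3 libraries beside each group. The interferon-type sums and the ratios are apart between the groups, at a mean ratio of -4.00 with HMGB2 and -6.39 with the vector, while the NF-kappaB-type sums overlap.

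Levels can be set in order between ligands only per length, for which the authors' FPKM values (fragments scaled by gene length and library depth) were used. With HMGB2 the order of mean FPKM was Ccl2 (335), Ccl7 (241), Cxcl16 (19.0), Cxcl1 (13.9), Cxcl10 (13.9), Cxcl12 (12.9), Cxcl5 (9.68), Ccl5 (7.06), Cx3cl1 (4.51) and Cxcl9 (0.0733). With the vector the order of mean FPKM was Ccl2 (372), Ccl7 (230), Cxcl16 (20.9), Cxcl12 (18.2), Cxcl1 (16.6), Cxcl5 (5.39), Cx3cl1 (4.21), Cxcl10 (2.85), Ccl5 (1.36) and Cxcl9, which was listed at 0. Ccl2 and Ccl7 led in both groups, and their ranges over 3 libraries overlapped with HMGB2 and were apart with the vector. Neighbours in the order whose ranges overlapped with HMGB2 were also Cxcl1 and Cxcl10, Cxcl10 and Cxcl12, Cxcl12 and Cxcl5, and Cxcl5 and Ccl5. With the vector they were Cxcl16 and Cxcl12, Cxcl12 and Cxcl1, and Cxcl5 and Cx3cl1. Cxcl10 was 8 in the order with the vector, below Cx3cl1, and 5 with HMGB2, between Cxcl1 and Cxcl12.

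Receptors for these ligands were mostly at or near 0. Over 3 libraries each, Cxcr3, which binds Cxcl9 and Cxcl10, summed to 0 counts with HMGB2 and 1 with the vector. Ccr2, which binds Ccl2 and Ccl7, summed to 1 count with HMGB2 and 0 with the vector, and Cxcr2, which binds Cxcl1 and Cxcl5, to 4 counts in each group. None of these 3 receptors had enough counts for a test. A sum of 0 allows up to 3 counts, which is 0.0633 CPM with HMGB2 and 0.0741 CPM with the vector. Cxcr4, which binds Cxcl12, and Cxcr6, which binds Cxcl16, were low but tested, with log2 fold changes of -0.06 (edgeR adjusted p = 0.918) and 0.35 (edgeR adjusted p = 0.589). Ackr3, the scavenger of Cxcl12, was at 12.4 ± 0.571 CPM with HMGB2 and 12.1 ± 1.45 CPM with the vector (n = 3 each, SD) and did not pass.

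Cx3cr1, the receptor of Cx3cl1 and a marker of monocytes and tissue macrophages, had 3, 0 and 1 counts in HMGB2 libraries 1, 2 and 3, against 34, 21 and 31 counts in vector libraries 1, 2 and 3. The groups did not overlap, and no HMGB2 library had more than 3 counts. Depth-scaled sums of 4 counts with HMGB2 and 86 with the vector put the vector 25.1-fold above HMGB2, with a 95% counting interval of 9.47 to 94.4 (edgeR adjusted p = 0.000485). Of the 4 counts, 3 came from HMGB2 library 1, and without that library the ratio was 65.3 with an interval of 11.4 to 2610. The 10 listed macrophage markers summed to 70.9 to 83.9 CPM with HMGB2 and 91.8 to 124 CPM with the vector. Of these, 8 were tested and 2 fell, the lysozyme gene Lyz2 and the complement gene C1qa, beside 10.8% of all genes tested, and none was at 0 in every library. Lyz2 was at a mean of 48.3 CPM with HMGB2 and 72.5 CPM with the vector, so the list sums are mostly those of Lyz2. Adgre1 was at 1.73 CPM with HMGB2 and 1.71 CPM with the vector and did not pass. The part of macrophages in the result for Cx3cr1 was not tested.

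Of the 23 listed chemokine receptors, 9 were tested, 1 rose and 2 fell, beside 14.4% and 10.8% of all genes tested, with a median log2 fold change of 0.04. Ccrl2, which binds the chemoattractant chemerin, rose to 7.55 ± 0.612 CPM with HMGB2, against 4.14 ± 0.858 CPM with the vector (n = 3 each, SD; log2 fold change 0.87, edgeR adjusted p = 0.00611). Ackr1, a venular receptor that takes up many inflammatory chemokines, fell to 12.9 ± 2.32 CPM with HMGB2, against 19.5 ± 1.44 CPM with the vector (n = 3 each, SD; log2 fold change -0.60, edgeR adjusted p = 0.0117). The edgeR adjusted p of Ackr1 was 0.0557 without HMGB2 library 1. Cx3cr1 was the other that fell.

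Beyond the 10 ligands, 28 other chemokine ligands were listed, of which 11 were tested. None rose and 2 fell in edgeR, beside 14.4% and 10.8% of all genes tested, with 0 higher at an unadjusted p under 0.05 or by DESeq2 or limma-voom and 1 higher in edgeR without vector library 1. The median log2 fold change was -0.29. Ccl6, a ligand made by mouse myeloid cells, fell to 38.4 ± 5.16 CPM with HMGB2, against 66.1 ± 5.82 CPM with the vector (n = 3 each, SD; log2 fold change -0.78, edgeR adjusted p = 0.000938). Its libraries were 41.5, 41.3 and 32.5 CPM in HMGB2 libraries 1, 2 and 3, against 65.3, 72.2 and 60.7 CPM in vector libraries 1, 2 and 3, with no overlap. Ccl4, a ligand that draws monocytes and T cells, had 12, 12 and 23 counts in HMGB2 libraries 1, 2 and 3, against 33, 21 and 35 counts in vector libraries 1, 2 and 3. Its log2 fold change of -1.17 had an edgeR adjusted p of 0.0364, and the call was lost under 6 of 16 alternatives, among them the fits without HMGB2 library 1 (edgeR adjusted p = 0.136) and without HMGB2 library 2 (edgeR adjusted p = 0.12). The other 17 had too few counts for the test, with 5 of them at 0 in all 6 libraries and a largest sum over the 6 libraries of 49 counts, for the B cell attractant Cxcl13.

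Genes known for the same inducers moved with the interferon-type ligands. All 30 listed interferon-induced genes were tested and all 30 rose, beside 14.4% of all genes tested, with a median log2 fold change of 1.86. This list, like the others, was chosen with earlier results of these data known, so the count is a description and not independent support. The list ran between 1.73-fold and 12.9-fold, and Cxcl10 and Ccl5 lay within that range. Rsad2, an antiviral radical SAM enzyme, rose 8.05-fold, at 139 ± 11.6 CPM with HMGB2 and 17.2 ± 1.55 CPM with the vector. Oas3, an enzyme that makes the activator of RNase L, rose 10.6-fold, at 52.8 ± 4.76 CPM with HMGB2 and 4.98 ± 0.599 CPM with the vector (n = 3 each, SD, as for the CPM values that follow). Ifit1, which binds foreign RNA ends, rose 6.36-fold, and Ifi44 rose 5.45-fold (edgeR adjusted p = 6.88e-07 each).

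Of 19 listed interferon signalling genes, 17 were tested, 7 rose and 2 fell, beside 14.4% and 10.8% of all genes tested, with a median log2 fold change of 0.28. The share that fell is near that of all genes. Irf7, the transcription factor that amplifies type I interferon, rose 4.82-fold to 180 ± 4.30 CPM with HMGB2, against 37.4 ± 6.28 CPM with the vector (edgeR adjusted p = 1.89e-06). Stat2, which carries the signal of type I interferon, rose 2.46-fold (edgeR adjusted p = 3.06e-05), and Usp18, a feedback inhibitor of the type I receptor, rose 5.93-fold (edgeR adjusted p = 3.59e-06). The 2 that fell were Ifngr1, a chain of the interferon-gamma receptor (1.46-fold lower), and the myeloid factor Irf8 (1.29-fold lower), both named after their values were seen. The number that fell was 1 without HMGB2 library 1, HMGB2 library 2, vector library 2 or vector library 3, and 4 without HMGB2 library 3 and vector library 1. Of the interferon genes themselves, Ifnb1, which encodes interferon-beta, summed to 15 counts with HMGB2 and 0 with the vector, and Ifng was at 0 in all 6 libraries. Neither could be tested.

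The NF-kappaB genes are set beside them in the plot of log2 fold changes by list. Of 22 listed NF-kappaB factors and regulators, all tested, none rose and 8 fell in edgeR, beside 10.8% of all genes tested, and no gene of the list was higher at an unadjusted p under 0.05 or by DESeq2 or limma-voom. The list had a median log2 fold change of -0.25. Nfkbiz, a nuclear IkappaB protein that assists secondary targets, fell by 0.60 on the log2 scale, with 76.4 ± 1.72 CPM in HMGB2 libraries and 115.9 ± 8.98 CPM in vector libraries (edgeR adjusted p = 0.000494). Map3k14, the kinase of the non-canonical pathway, fell by 0.75 on the log2 scale, with an edgeR adjusted p of 0.00425. Nfkbib and Bcl3, both IkappaB family members, each fell by 0.49 on the log2 scale. Some of these 8 are inhibitors of NF-kappaB and others are its subunits or activators. The count that fell was 4 with the replicate number as a block and 5 without HMGB2 library 1, HMGB2 library 2 or vector library 3, and 11 without HMGB2 library 3 and vector library 1.

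Among 22 listed inflammatory targets of NF-kappaB, 18 were tested, 2 rose and 8 fell, beside 14.4% and 10.8% of all genes tested, with a median log2 fold change of -0.25. Il33, an alarmin cytokine of stromal and endothelial cells, fell by 1.44 on the log2 scale (11.8 CPM with HMGB2, 31.9 CPM with the vector; edgeR adjusted p = 3.36e-05). Ptgs2, the inducible cyclooxygenase, fell by 0.64 on the log2 scale, and the adhesion molecules Selp and Icam1 fell by 0.66 and 0.52 on the log2 scale. The 2 that rose were the matrix protease Mmp3 (1.64-fold) and the mitochondrial superoxide dismutase Sod2 (1.24-fold), both named after their values were seen. Neither passed without HMGB2 library 2, HMGB2 library 3, vector library 2 or vector library 3, nor with the replicate number as a block, and 1 passed without HMGB2 library 1. Among the tested ligands of the NF-kappaB type, by comparison, 1 rose, 3 did not pass and none fell, and Cxcl5 is the member whose direction differs from that of most listed targets that passed.

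**Figure D4:**
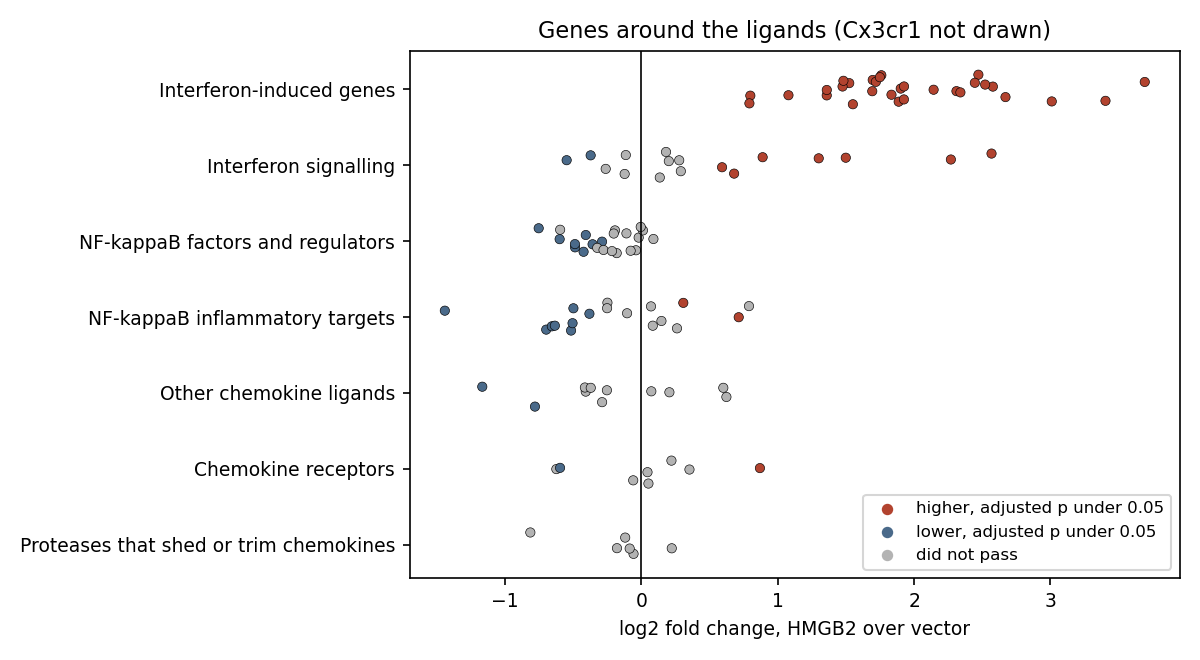
Log2 fold change, HMGB2 over vector, of the tested genes of 7 lists around the ligands (1 point per gene, spread vertically only for legibility; red, higher at an edgeR adjusted p under 0.05; blue, lower; grey, did not pass). All 30 interferon-induced genes lie to the right of 0, the NF-kappaB lists have 8 blue points each, and Cx3cr1, with 4 counts in the HMGB2 libraries, is not drawn.

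Likeness across the 6 libraries was measured as the Euclidean distance between centred log2 CPM values, which puts genes with the same pattern near each other. The nearest genes to Cxcl10 outside the ligands were Ifi27l2b (distance 0.23), Irf7 (0.23) and Apol9a (0.24), where the median distance over all genes was 2.74. Their log2 fold changes were 2.23, 2.27 and 2.09, beside 2.27 for Cxcl10. For a gene that changed this much, the distance mostly measures the difference between the groups. Nearness to Cxcl10 thus shows a fold change of like size and no likeness beyond it. Ifi27l2b was at 22.8, 24.5 and 31.4 CPM in HMGB2 libraries 1, 2 and 3, against 7.06, 5.33 and 4.51 CPM in vector libraries 1, 2 and 3. Like Cxcl10 it was highest in HMGB2 library 3 of its group and in vector library 1 of its group. The nearest to Ccl2 were Phf5a (0.0812), Cyb5a (0.0946) and S100a4 (0.106), with a median distance of 0.662. Phf5a was at 29.3, 26.9 and 34.6 CPM in HMGB2 libraries 1, 2 and 3, against 40.6, 29.2 and 31.9 CPM in vector libraries 1, 2 and 3. Ccl2 and its nearest genes were highest within their groups in HMGB2 library 3 and vector library 1, the 2 libraries that stood apart by gene length, whose part in this likeness was not tested.

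Summed levels of blood cell markers are given beside the ligands, those of macrophages above with Cx3cr1. Of 8 T and NK cell markers, Nkg7, Klrb1c and Ncr1 were at 0 in all 6 libraries, and the list summed to 0.361 to 0.621 CPM with HMGB2 and 1.02 to 2.22 CPM with the vector. Cd3e was the gene of this list that could be tested and fell (edgeR adjusted p = 0.0155), beside 10.8% of all genes tested. Its summed counts were 19 with HMGB2 and 57 with the vector, so the list sums are mostly those of Cd3e. Cd3d and Cd3g summed to 0 counts with HMGB2 and to 2 and 1 with the vector. The 7 neutrophil markers summed to 1.88 to 5.59 CPM with HMGB2 and 4.09 to 7.58 CPM with the vector, with overlap between the groups. Cardiomyocyte markers moved with Cxcl10 and Ccl5: the 8 genes summed to 26600 to 26900 CPM with HMGB2 and 16300 to 17400 CPM with the vector, and 6 of the 8 rose, beside 14.4% of all genes tested, among them Actc1 (2.64-fold) and Tnnt2 (1.79-fold). None of the 8 was at 0 in any library, and the part of these cell types in the results for Cxcl10 and Ccl5 was not tested.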

How the data were processed

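Per the labels' protocols, RNA came from TRIzol lysates and a VAHTS Universal V5 library kit was used. Tools named in the submitters' processing notes, with no role given, are StringTie 1.3.3b, HTSeq 0.6.1, HISAT2 2.2.1 and FastQC 0.10.1, and the build is mm10. The authors deposited raw counts per gene for the 6 libraries and, in a second table, FPKM values, which for 2159 well expressed genes were the same counts rescaled. Positions are from GENCODE M21 (GRCm38) through the Ensembl identifiers, since only 1472 of 52073 matched genes had the deposited start and end.

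The test on counts was that of edgeR 4.0.16 under R 4.3.3 (filterByExpr with minimum count 10 and total 15, TMM, robust quasi-likelihood fit, group as the only term, Benjamini-Hochberg over 15429 genes). The SE was computed as the absolute log2 fold change divided by the root of the F statistic. The procedure was tested on simulated data. Alternatives used DESeq2 1.42.0, limma 3.58.1 (voom, and FPKM with a pseudocount of 1 or 0.1), other scaling and filters, left-out libraries, and the replicate number as a block. Libraries with the same number did not deviate together in every pair, so the numbers were not taken to pair the samples. Library pairs within a group differed by more than sampling noise (lowest chi-square over its degrees of freedom 1.995) and each library counted as 1 sample.

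The members and lists were chosen with earlier results of these data known. Named besides the 10 ligands are, per list, up to 4 genes that passed, by smallest p, or the 2 of highest mean CPM where fewer than 2 passed, the 3 genes nearest to Cxcl10 and to Ccl2, and receptors of the ligands. Some genes that these rules take are left out of the text. Of the lists of other cell types, 8 smooth muscle and pericyte markers summed to 1290 to 1380 CPM with HMGB2 and 1300 to 1380 CPM with the vector, and 5 epicardial markers to 125 to 134 CPM with HMGB2 and 154 to 176 CPM with the vector. Sequence similarity was searched with blastn 2.17.0+.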

Additional observations from a re-analysis of the deposited data

How the results depend on the processing

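Cxcl10, Ccl5 and Cxcl12 kept their direction and passed in edgeR, DESeq2 and limma under all 17 alternatives, with a highest adjusted p of 0.00043, 0.00278 and 0.0162. Cxcl16 did not pass under any of them. The count of ligands that rose was 3 without HMGB2 3 and vector 1 together and 2 to 3 with a library left out, where Cxcl5 lost its call. Ligands lower with HMGB2 were 2 without these 2 libraries (Ccl2 joined), 2 with an offset for gene length (Cxcl1 joined, -0.34, adjusted p = 0.0448) and 1 to 2 with a library left out. Ccl7 turned sign, with values of -0.114 to 0.151 over single libraries left out and -0.0134 without both, and Cx3cl1 gave -0.000699 with the length offset. The labels' replicate numbers were also used as a paired design: correlations of same-numbered libraries were -0.358, 0.261 and -0.418, and with this replicate block 1459 genes were higher and 754 lower, against 2224 and 1662, with no change of call among the ligands. Genes lower with HMGB2 were 866 to 1960 with a library left out, 2986 without HMGB2 3 and vector 1 together and 2956 with the length offset. The difference in log2 ratio between the types was 2.2 without Ccl2 and Ccl7. The length offset, the ratio without Ccl2 and Ccl7 and the left-out libraries for Cxcl9 and Cx3cr1 counts were chosen after seeing the data. The causes of these changes were not tested. Cxcl9 and 14 of the 23 receptors did not reach the counts the filter needs, and the part of sequencing depth in this was not tested.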
